A study of Mus musculus with 2 samples.

Results

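Pro-B cells were described in 2 single-cell libraries made from periosteum, the fibrous sheath of bone, and they numbered 645 of 9169 cells kept, with 321 in library 1 and 324 in library 2. A pro-B cell was a barcode with at least 1 unique molecular identifier (UMI, a tag that counts each captured RNA molecule once) of each of Cd79a, Vpreb1, Igll1 and Dntt and none of Ms4a1. Kept cells held 500 genes and 500 UMIs or more, with mitochondrial UMIs of no more than 10%. Measured values of these 5 genes therefore chose the cells, and they are given below as a description only. Every other kept cell with a Cd79a UMI served for comparison.

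The labels give both libraries as wild-type C57BL6 mice aged 4 weeks, with no treatment, and tell them apart by replicate number alone. The counts did not match that label in full, since tdTomato UMIs were in both libraries (40.2 and 345 CPM in stromal cells, as UMIs per 1000000) and EGFP UMIs in the stromal cells of library 2 (161 CPM) and not in those of library 1. The periosteum was peeled from femurs and tibias, digested with collagenase, sorted on CD45, CD31, Ter-119 and DAPI, and sequenced with droplet-based 3′ chemistry. The study sorted for cells negative for these 3 surface proteins and removed hematopoietic cells from its own clustering, so that the B-lineage cells described here are cells that passed the sort. The sources used here do not say how many mice gave each library, so p-values measure only the spread between these 2 libraries, which may be technical.

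Pro-B cells are B-lineage precursors, known best from bone marrow, that assemble an immunoglobulin heavy chain gene. RAG1 and RAG2 cut the V, D and J gene segments, end-joining enzymes rejoin them, and terminal deoxynucleotidyl transferase (TdT, the product of Dntt) adds bases at the joints. Once a heavy chain is made, it pairs with the surrogate light chain, formed by VpreB and lambda 5 (Igll1), into the pre-B cell receptor. Its signal is known to start a burst of divisions, after which the light chain genes are rearranged and CD20 (Ms4a1) and major histocompatibility complex (MHC) class II molecules appear.

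The promoters of the surrogate light chain and Dntt genes are shown because these genes define the cells. Each sequence is taken from RefSeq on build GRCm38.p6 and runs 5′ to 3′ on the gene's strand, from 250 bases before the transcription start to 50 after it. Vpreb2, a near-copy of Vpreb1, is shown beside it. Capitals mark every match, on either strand, to the E-box motifs CAGGTG and CAGCTG and to the EBF-type core CCCNNGGG. A longer EBF-type palindrome, the core with a further base at each end, was searched too. The windows are chr16:16869206-16869505 (minus strand) for Vpreb1, chr16:16863936-16864235 (minus strand) for Igll1, chr16:17980315-17980614 (plus strand) for Vpreb2 and chr19:41029025-41029324 (plus strand) for Dntt.
Vpreb1: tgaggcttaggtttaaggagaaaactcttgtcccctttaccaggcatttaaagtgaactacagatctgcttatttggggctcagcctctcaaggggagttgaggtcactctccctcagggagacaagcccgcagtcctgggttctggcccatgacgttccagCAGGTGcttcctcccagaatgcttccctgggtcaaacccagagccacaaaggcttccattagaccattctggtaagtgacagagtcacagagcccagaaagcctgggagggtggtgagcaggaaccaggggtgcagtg
Igll1: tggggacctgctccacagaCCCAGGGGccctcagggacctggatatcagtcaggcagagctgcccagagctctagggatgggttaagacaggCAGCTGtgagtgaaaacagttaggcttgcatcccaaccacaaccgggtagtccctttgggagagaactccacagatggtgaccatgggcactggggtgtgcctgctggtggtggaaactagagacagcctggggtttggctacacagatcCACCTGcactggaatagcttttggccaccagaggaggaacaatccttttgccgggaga
Vpreb2: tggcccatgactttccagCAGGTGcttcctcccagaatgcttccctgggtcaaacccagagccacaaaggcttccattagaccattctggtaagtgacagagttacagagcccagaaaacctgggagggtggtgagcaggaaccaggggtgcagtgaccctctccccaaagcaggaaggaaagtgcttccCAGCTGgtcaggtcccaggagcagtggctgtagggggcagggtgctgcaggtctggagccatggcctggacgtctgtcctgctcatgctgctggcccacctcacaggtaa
Dntt: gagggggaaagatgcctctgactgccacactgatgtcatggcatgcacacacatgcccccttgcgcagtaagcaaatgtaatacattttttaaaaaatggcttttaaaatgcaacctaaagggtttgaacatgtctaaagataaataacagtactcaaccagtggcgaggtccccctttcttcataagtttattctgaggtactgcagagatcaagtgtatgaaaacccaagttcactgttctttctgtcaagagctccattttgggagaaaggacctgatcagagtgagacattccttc

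Vpreb1 held CAGGTG with its first base at position -88 from the transcription start. In Igll1, CAGGTG lay at -8, CAGCTG at -158 and CCCNNGGG at -231, and in Vpreb2 CAGGTG lay at -232 and CAGCTG at -60. The CAGGTG of Vpreb1 and that of Vpreb2 lie in a near-identical stretch of both sequences. Their positions differ because the annotated starts differ. Dntt held none of the 4 motifs in this window. Of 32851 promoters of the same length, 20.2% held CAGGTG, 16.3% CAGCTG, 13.7% CCCNNGGG, 0.904% the longer palindrome and 41.8% at least 1 of them. A match is a description of the letters and not a measured binding site.

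Among the gate genes, Cd79a encodes the Ig-alpha signalling chain of the B cell receptor. Its median was 14 UMIs a pro-B cell in each library, and the summed level was 1543 and 1995 CPM (UMIs of a gene, scaled to 1000000 UMIs of the class) in libraries 1 and 2, the order kept for all pairs of values below. Median counts a cell were 17 and 19 UMIs for Vpreb1, 8 and 15 for Igll1 and 8 and 7 for Dntt, and the summed levels were 1754 and 2523 CPM for Vpreb1, 796 and 1936 for Igll1 and 899 and 1074 for Dntt. Igll1 was thus higher in library 2, and the other 3 genes differed less between libraries.

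At the edge of the gate, 37 and 35 members held exactly 1 UMI of a gate gene, and 30 and 27 of them a single Dntt UMI. Just outside it lay 259 and 113 cells with the other 3 genes but no Dntt, and 12 and 9 cells with all 4 genes and at least 1 Ms4a1 UMI, 10 and 6 of which held exactly 1. Cells that failed through Vpreb1 alone numbered 3 and 4, through Igll1 alone 6 and 2, and through Cd79a alone 0 and 2. Dntt was therefore the gene that separated the pro-B cells from most of their neighbours.

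Pro-B cells were 10.2% (95% exact binomial interval 9.15 to 11.3) of the 3151 Cd79a cells in library 1 and 22.9% (20.8 to 25.2) of 1413 in library 2. Of all kept cells they were 5.11% (4.58 to 5.69) and 11.2% (10.1 to 12.4). Both shares were higher in library 2, where the intervals lay apart from those of library 1. All such intervals, here and below, cover counting error only.

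The median pro-B cell held 7007 and 5556 UMIs (range 2239 to 72527 and 1229 to 35476) and 2368 and 2124 genes, with 3.63% and 1.42% mitochondrial UMIs. Summed over cells, the pro-B class held 3773578 and 2619961 UMIs. The libraries held 100808649 and 33306452 UMIs in 9932 and 3659 barcodes, of which 6276 and 2893 were kept. Of the barcodes of kept cells, 7 occurred in both libraries, and no barcode was a pro-B cell in both. Scrublet, a caller of droplets with more than 1 cell, marked 11 pro-B cells (3.43%) in library 1, and in library 2 it marked 1 of 2893 cells and no pro-B cell, so that its removal left the pro-B cells of library 2 as they were.

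Markers that played no part in the gate were found in these cells as well, with Ebf1 in 100% and 100%. Vpreb3, a pre-B cell receptor chaperone, had a UMI in 99.7% and 100% of pro-B cells, and Cd79b, the Ig-beta partner of Cd79a, in 99.4% and 97.8%. Rag1 was detected in 75.7% and 66.4%, Pax5, which commits cells to the B lineage, in 73.8% and 52.5%, and Il7r, the interleukin 7 receptor, in 59.8% and 58.0%. The early surface markers Cd93, Bst1 (BP-3) and Spn (CD43) followed with 54.8% and 43.8% for Cd93, 35.5% and 41.0% for Bst1 and 22.1% and 17.0% for Spn. The name pro-B rests on the gate, and these 9 markers place the class in the B lineage, beside the stromal background given next. In the fits further below, none of the 9 was called against Dntt-negative cells without library as a block. With the block Ebf1, Vpreb3, Rag1 and Bst1 were higher there. Cd93, Bst1 and Spn came from a list of early surface genes. Of that list the block called 3 higher and 9 lower against all other Cd79a cells.

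Stromal cells, which should lack most of these genes, gave a measure of free RNA. They were cells with no Cd79a and no Ptprc UMI and at least 2 UMIs of at least 4 of 5 matrix genes, 122 and 663 in number, with median depths of 21055.5 and 9913 UMIs. Vpreb3 had a UMI in 9.02% and 4.07% of them, Rag1 in 1.64% and 0.151% and Pax5 in 0.820% and 0.452%. Cd79b had a UMI in 9.84% and 2.11% of them, Il7r and Cd93 each in 2.46% and 0.151%, Bst1 in 1.64% and 0.151% and Spn in 0.820% and 0%. All 8 shares lay below the pro-B shares, in deeper cells. Stromal cells with a Cd79a or Ptprc UMI had been left out, so that this background may be too low. Ebf1, a transcription factor that starts the B-cell programme, is also a stromal gene and was found in 70.5% and 70.6% of stromal cells. Its level was 2225 and 3129 CPM in pro-B cells against 236 and 369.6 CPM in stromal cells. Ptprc, which encodes CD45, had UMIs in 48.6% and 31.2% of pro-B cells, although the study sorted for CD45-negative cells.

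RNA of other cell types was present beside these markers. The 10 erythroid markers summed to 13505 and 6349 CPM in pro-B cells against 28231 and 9210.2 CPM in the other Cd79a cells, with Hbb-bs highest. The 10 neutrophil markers, led by S100a9 and S100a8, summed to 3843 and 759.9 CPM against 15963 and 2207 CPM. Both lists were lower in the pro-B cells of both libraries. The 10 monocyte and macrophage markers, led by Lyz2, gave 206 and 45.4 against 719.8 and 206 CPM, with Csf1r and Adgre1 at 0 in pro-B cells. The 10 T and NK cell markers gave 6.1 and 10.7 against 51.6 and 7.52 CPM, with Cd3e, Cd3d, Cd3g, Trbc1, Cd4 and Cd8a at 0 in both libraries. Stromal markers, led by Col1a1, were uneven between libraries, with 83.7 and 1264 CPM in pro-B cells and 3030.5 and 9599.9 CPM in the other Cd79a cells, and Pdgfra and Prrx1 were at 0 in the pro-B cells of library 1.

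Against all 2830 and 1089 other Cd79a cells together, no gene passed the test. With the UMIs of each class summed within a library, edgeR (quasi-likelihood, adjusted by Benjamini-Hochberg over 11257 genes) called 0 genes higher (0% of those tested) and 0 lower (0%) at an adjusted p under 0.05. At an unadjusted p under 0.05 there were 1432 genes, and DESeq2 called 286 higher and 275 lower. Pro-B cells and other Cd79a cells of a library share that library, and with library as a replicate block edgeR called 932 higher (8.28%) and 1087 lower (9.66%). That fit rests on 4 sums, and its share of false calls is not known. The comparison class mixes several B-cell stages, and the libraries differed in that mixture and in RNA of other cells.

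Among the genes that the blocked fit placed first, chosen by this fit after the data were seen, the higher group held Speer2, A630023P12Rik, Scn4b, Fcrl6, Gm30948, Mmrn1, 1810073O08Rik, 1500002F19Rik, Gm46560 and Arpp21. Gm30948 had 275 and 254 UMIs in pro-B cells and 33 and 30 in the far larger other class, and Gm46560 48 and 119 against 5 and 18. The lower group held Fibin, Iglc2, Wnt10a, Omd, Il17b, Bcl2a1b, Ptn, Rflna, Ihh and 2010309G21Rik. Fibin, Omd, Ptn and Ihh, genes of stroma and cartilage, had 0 UMIs in pro-B cells. In the other class Fibin had 72 and 294 and Omd 58 and 193 UMIs, which against a floor of 3 counts per library is lower by at least 2.86-fold and 34.5-fold for Fibin and 2.30-fold and 22.6-fold for Omd. Ptn had 61 and 130 UMIs there (2.42-fold and 15.2-fold or more) and Ihh 60 and 96 (2.38-fold and 11.3-fold or more). The blocked fit also called 10 of 10 erythroid, 6 of 10 neutrophil, 7 of 8 monocyte and macrophage, 1 of 1 T and NK cell and 9 of 10 stromal markers tested lower in pro-B cells. The part of free RNA or doublets in these calls was not tested.

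Part of the other Cd79a cells was therefore split into stages by gate genes and Rag1. The remaining 1101 and 355 cells, with 17411725 and 2872663 UMIs, met none of the definitions below. They entered only the comparison with all other Cd79a cells. Dntt-negative surrogate light chain cells held Cd79a, Vpreb1 and Igll1 but neither Dntt nor Ms4a1 (259 and 113 cells, median 19881 and 9058 UMIs). Rag1 cells held Cd79a and Rag1 without Vpreb1, Igll1, Dntt and Ms4a1 (891 and 315 cells, 3466 and 3542 UMIs), and Ms4a1 cells held Cd79a and Ms4a1 (579 and 306 cells, 3471 and 3257 UMIs). A single fit over the 4 classes and 8 sums gave the 3 comparisons below, which share the pro-B sums, so that each is given on its own values. As background, a large cycling cell with surrogate light chain but no Dntt is the textbook picture after pre-B cell receptor signalling, and a small Rag1 cell without surrogate light chain that of light chain rearrangement.

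Against the Dntt-negative cells, 17 genes were higher in pro-B cells (0.159% of 10672 tested) and 6 lower (0.0562%). With the replicate block these counts were 875 (8.2%) and 668 (6.26%). These counts depended on the setting: edgeR's older quasi-likelihood fit called 0 higher and 0 lower, DESeq2 155 and 52, and cells without Mki67 or Top2a UMIs gave 1 and 7. Against the Rag1 cells, 341 genes were higher (3.2% of 10671) and 298 lower (2.79%), or 1570 (14.7%) and 1491 (14%) with the block. Against the Ms4a1 cells, 163 were higher (1.53% of 10672) and 323 lower (3.03%), or 1111 (10.4%) and 1381 (12.9%) with the block. These shares over all genes are the measure for each list count below. A count near them is not a result about its list.

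**Figure D1:**
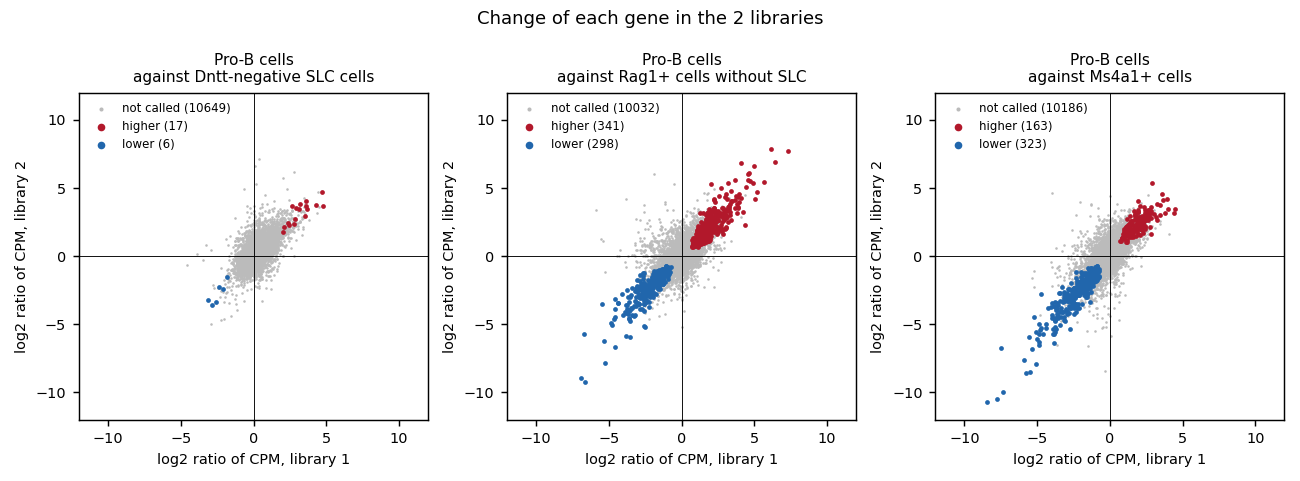
Log2 ratio of CPM (with 1 CPM added), pro-B cells over each comparison class, in library 1 (horizontal axis) and library 2 (vertical axis), 1 point a gene tested (SLC, surrogate light chain), with genes called higher in red and called lower in blue. The called genes lie near the diagonal, and they number 17 and 6, 341 and 298, and 163 and 323 from left to right.

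Of the transcription factors, the largest differences were in genes other than Ebf1 and Pax5. Erg, an ETS factor of early hematopoietic cells, was at 71.6 (63.3 to 80.6) and 112 (99.4 to 125) CPM in pro-B cells. Its levels were 2.45 and 11.7 CPM in Dntt-negative, 3.30 and 0 in Rag1 and 4.70 and 5.51 in Ms4a1 cells, all below either pro-B value. Ratios between classes carry 95% counting intervals, and a class at 0 UMIs was set at a floor of 3 counts per library. Erg was higher against Rag1 cells by 21.7-fold (12.9 to 39.3) and at least 53.0-fold (adjusted p = 0.0208) and against Ms4a1 cells (log2 fold change 4.10 ± 0.87, adjusted p = 0.0469), and against Dntt-negative cells its adjusted p was 0.123, or 0.00247 with the block. Among cells without Mki67 or Top2a UMIs, an alternative chosen after seeing the data and described further below, the last difference was 1.42 ± 0.56, adjusted p = 0.623.

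A UMI of Erg was found in 49.5% and 54.0% of pro-B cells, 3.86% and 11.5% of the deeper Dntt-negative cells and 1.57% and 0% of Rag1 cells. After every cell was thinned to 2000 UMIs, which left out 0 and 8 pro-B cells, 2 and 6 Dntt-negative, 23 and 4 Rag1 and 20 and 8 Ms4a1 cells, the shares were 18.7% and 25.4% of pro-B, 1.62% and 5.48% of Dntt-negative and 0.576% and 0% of Rag1 cells. The pro-B share stayed the highest in both libraries.

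**Figure D2:**
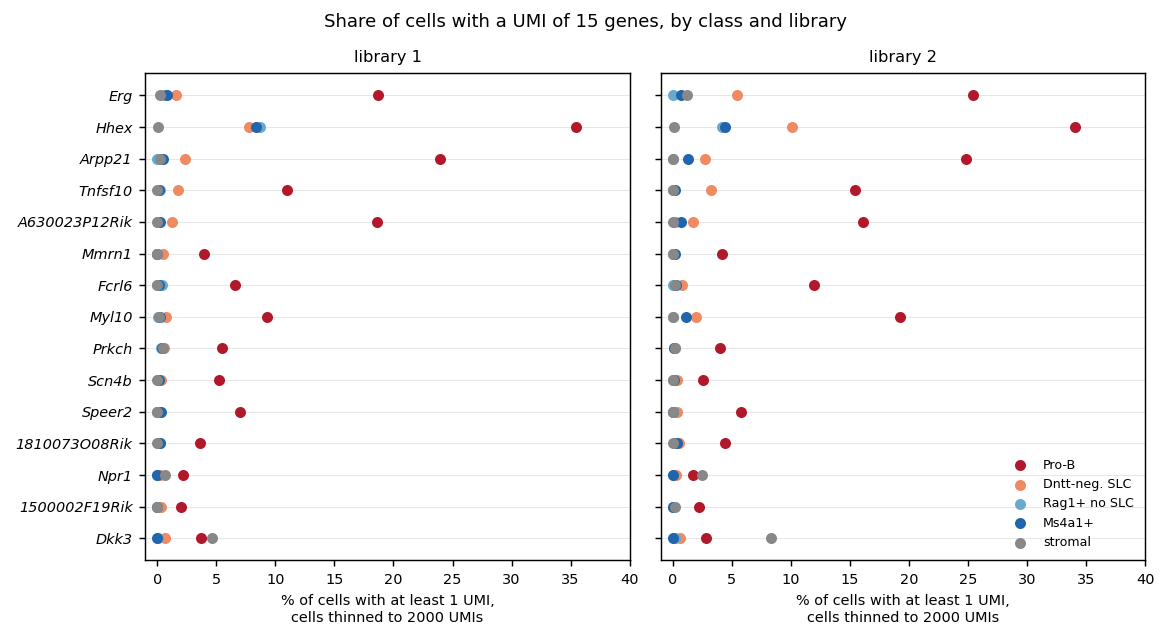
Percent of cells with at least 1 UMI of each of 15 genes after thinning each cell to 2000 UMIs, by class of cell (SLC, surrogate light chain), with a panel for each library. Erg reaches 18.7% and 25.4% of pro-B cells.

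Lef1, a Wnt-pathway factor of B and T precursors, was at 530.0 and 561 CPM in pro-B cells and 203 and 177 CPM in Dntt-negative, 70.3 and 61.9 in Rag1 and 86.8 and 53.7 in Ms4a1 cells. The homeobox factor Hhex had 179 and 205 CPM and at most 46.4 CPM in the other 3 classes. Both genes rose in pro-B cells against Rag1 cells (Lef1 log2 fold change 3.06 ± 0.27, adjusted p = 0.00249, and Hhex log2 fold change 2.64 ± 0.35, adjusted p = 0.00875) and against Ms4a1 cells (adjusted p = 0.00331 and 0.0192). Against Dntt-negative cells neither passed without the block (adjusted p = 0.0754 and 0.0662), and both did with it (0.00107 and 0.00163). Among cells without Mki67 or Top2a UMIs the differences were 0.70 ± 0.32, adjusted p = 0.701, for Lef1 and 1.84 ± 0.46, adjusted p = 0.339, for Hhex.

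Ikzf3 (Aiolos), an Ikaros-family factor of later pre-B cells, stood at the other end with 2.92 (1.46 to 5.22) and 4.96 (2.64 to 8.49) CPM in pro-B cells. It had 32.9 and 55.2 CPM in Dntt-negative, 94.5 and 132 in Rag1 and 116 and 188 in Ms4a1 cells, so that no class overlapped with pro-B cells. The gene fell in pro-B cells in all 3 comparisons, with -3.64 ± 0.45 (adjusted p = 0.0424), -4.83 ± 0.46 (0.00330) and -5.36 ± 0.47 (0.00331) as log2 fold changes with their standard errors.

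Id2, an inhibitor of E proteins, and the ETS factor Spib were also low. Id2 had 7.42 and 11.5 CPM in pro-B cells and 92.8 and 90.1 in Rag1 and 89.0 and 122 in Ms4a1 cells, and Spib 52.5 and 47.7 against 417 and 274 in Rag1 and 419 and 322 in Ms4a1 cells. Both fell against Rag1 and Ms4a1 cells (adjusted p = 0.00286 and 0.00477, then 0.00331 and 0.00450). Spi1 (PU.1), Irf4 and Irf8 fell in the same 2 comparisons, Klf2 against Rag1 cells and Gfi1 against Ms4a1 cells. Irf8 lost its call against Rag1 cells among cells without Mki67 or Top2a UMIs (-1.10 ± 0.32, adjusted p = 0.0869). Klf2 was also lower than in Ms4a1 cells with the block (adjusted p = 0.0701 without it and 0.000659 with it). Myb rose against Ms4a1 cells (log2 fold change 1.23 ± 0.26, adjusted p = 0.0463).

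Of 30 listed transcription factors, 29 were tested, and 0 rose and 1 fell against Dntt-negative cells, 3 rose and 7 fell against Rag1 cells, and 4 rose and 7 fell against Ms4a1 cells. The list medians were 0.12, -0.44 and -0.38 on the log2 scale, beside 0.02, -0.03 and -0.02 over all genes tested. With the block the counts were 9 and 8, 6 and 15, and 10 and 14, and against all other Cd79a cells 8 and 8. Ebf1 was not called against Rag1 cells (log2 fold change -0.32 ± 0.23, adjusted p = 0.481) but was lower there with the block (adjusted p = 0.0392), and Pax5, at 170.1 and 116 CPM in pro-B cells, had -0.14 ± 0.41 against Dntt-negative cells (adjusted p = 0.927).

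**Figure D3:**
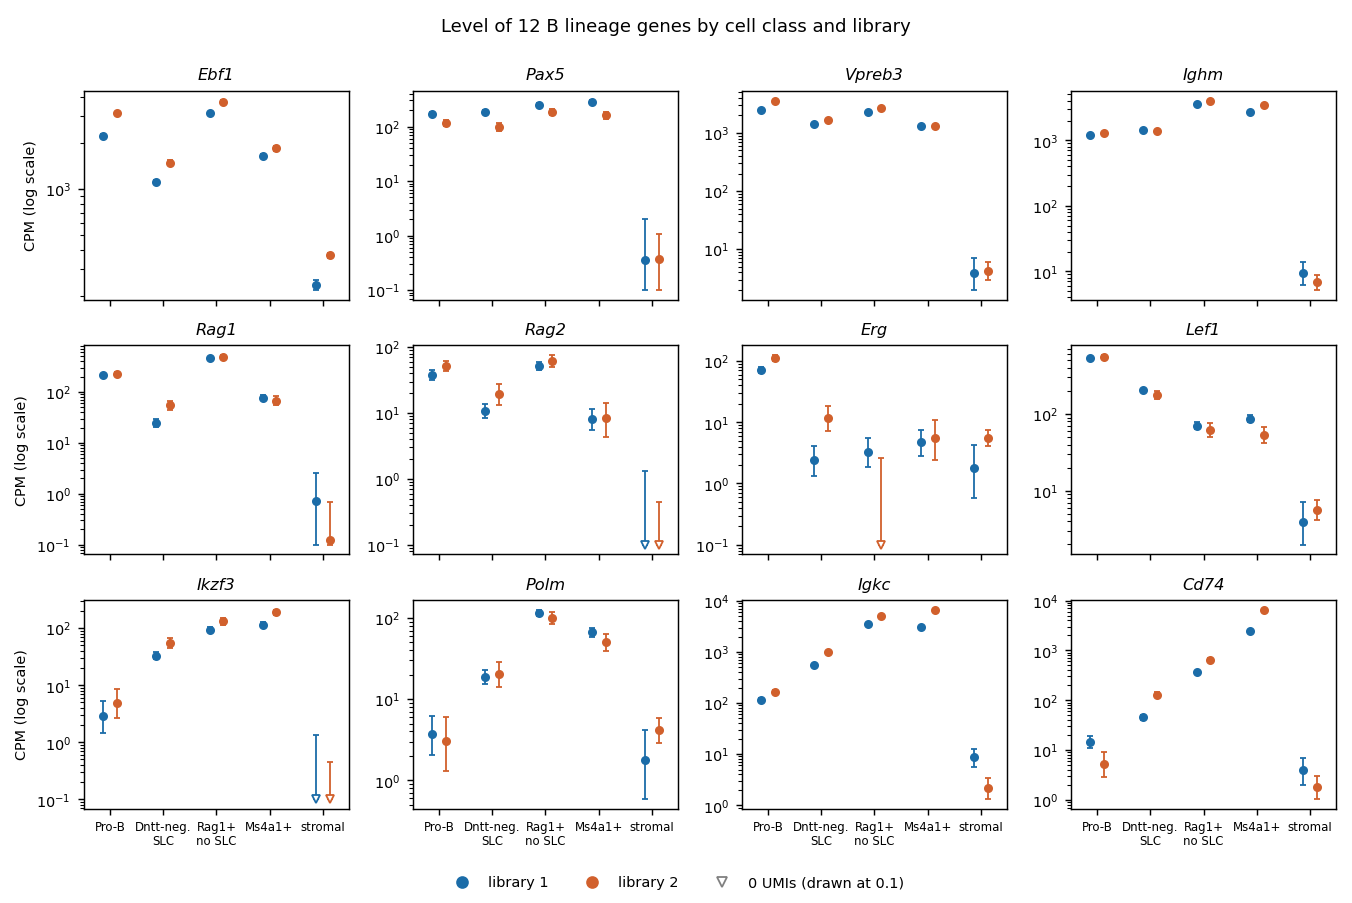
Summed level of 12 genes in CPM (log axis) in 5 classes of cell, with a point for each library and exact 95% Poisson intervals, which cover counting error only, and open triangles at 0.1 for classes with 0 UMIs. Erg and Lef1 are highest in pro-B cells, while Ikzf3, Polm, Igkc and Cd74 are lowest there among the B-lineage classes.

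In the recombination genes, Rag1 was at 212 (197 to 227) and 223 (206 to 242) CPM in pro-B cells, 24.5 and 55.2 CPM in Dntt-negative cells and 76.9 and 67.5 CPM in Ms4a1 cells. The Rag1 cells, which were gated on it, had 461 and 495 CPM, and no test was made there. The pro-B values lay above both other classes in each library. Against Dntt-negative cells the log2 fold change was 2.32 ± 0.36 (adjusted p = 0.0662), and 2.39 ± 0.27 (adjusted p = 0.00117) with the block. Thinned to 2000 UMIs, 40.8% and 39.0% of pro-B and 11.9% and 23.1% of Dntt-negative cells held a Rag1 UMI. Without the cells that had Mki67 or Top2a UMIs the log2 difference was near 0, at 0.07 ± 0.34, adjusted p = 0.982.

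Rag2 was at 37.9 and 51.5 CPM in pro-B cells, 10.9 and 19.4 in Dntt-negative, 52.1 and 61.9 in Rag1 and 8.16 and 8.27 in Ms4a1 cells. It rose against Ms4a1 cells (log2 fold change 2.36 ± 0.35, adjusted p = 0.0140) and passed against Dntt-negative cells with the block and not without it (blocked adjusted p = 0.00302). That difference was lost among cells without Mki67 or Top2a UMIs, at -0.02 ± 0.31, adjusted p = 0.995. Against Rag1 cells the difference was -0.33 ± 0.32 on the log2 scale (adjusted p = 0.616).

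Polymerases that fill ends during joining were measured as well. Polm, which encodes polymerase mu, a relative of TdT, was at 3.71 (2.03 to 6.22) and 3.05 (1.32 to 6.02) CPM in pro-B cells, 18.9 and 20.6 in Dntt-negative, 117 and 101 in Rag1 and 66.7 and 50.3 in Ms4a1 cells. It fell in pro-B cells in each comparison, with log2 fold changes of -2.66 ± 0.29, -4.95 ± 0.30 and -4.16 ± 0.29 (adjusted p = 0.0424, 0.00108 and 0.00275). Poll, which encodes polymerase lambda, had 36 and 26 UMIs in pro-B cells and 4 and 1 in Rag1 cells. Its level in pro-B cells was 10.8-fold (3.89 to 42.0) and 14.1-fold (2.32 to 578) that of Rag1 cells, with 95% counting intervals, and it passed the test there (adjusted p = 0.0254).

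Of 14 recombination and end-joining genes, 0 rose and 1 fell against Dntt-negative cells, 1 rose and 1 fell of 13 against Rag1 cells, and 1 rose and 1 fell against Ms4a1 cells, and with the block 4 and 2, 2 and 4, and 6 and 2. Over all genes tested the block called 8.2% higher and 6.26% lower, 14.7% and 14%, and 10.4% and 12.9%. The list medians were 0.14, -0.01 and 0.49 log2. Against all other Cd79a cells the blocked fit called 4 higher and 1 lower, among them Rag1 at 1.04 ± 0.15 (adjusted p = 0.00640).

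In the genes of the pre-B and B cell receptor, Vpreb2, the second VpreB gene, was at 193 and 351 CPM in pro-B cells and 43.1 and 59.3 CPM in Dntt-negative, 0.220 and 0.704 in Rag1 and 19.5 and 24.1 in Ms4a1 cells. Its transcript was 96.6% identical to that of Vpreb1 (740 of 766 aligned bases, against 48.3% for Vpreb3), so that reads of the gate gene may have been split between them and its calls against Rag1 cells (adjusted p = 0.000707) and Ms4a1 cells (0.00331) are uncertain. Vpreb3 had 2459.7 and 3565 CPM in pro-B cells and 1328 and 1323 CPM in Ms4a1 cells, and it rose against the latter (log2 fold change 1.11 ± 0.21, adjusted p = 0.0310).

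Ighm, the mu heavy chain constant gene, was at 1194 and 1274 CPM in pro-B cells and 1448 and 1378 CPM in Dntt-negative cells, where the difference was -0.35 ± 0.19 (adjusted p = 0.50). It was at 3544 and 3964 CPM in Rag1 and 2685 and 3450.2 CPM in Ms4a1 cells, above both pro-B values, and pro-B cells were lower (log2 fold change -1.58 ± 0.19, adjusted p = 0.00690 against Rag1 cells, and adjusted p = 0.0113 against Ms4a1 cells). The SRC-family kinase Blk, with 19.9 and 19.1 CPM in pro-B cells, 71.6 and 57.6 in Dntt-negative, 106 and 99.2 in Rag1 and 122 and 154 in Ms4a1 cells, fell in every comparison, with log2 fold changes of -1.88 ± 0.24, -2.37 ± 0.24 and -2.89 ± 0.25 (adjusted p = 0.0424, 0.00401 and 0.00331). The signalling genes Lyn and Syk fell against Rag1 and Ms4a1 cells, Dok3 against Rag1 cells, and Bank1, Cd22 and Ptpn6 against Ms4a1 cells. Cd22, an inhibitory receptor, had 16 and 3 UMIs in pro-B cells and 173 and 81 in Ms4a1 cells, 10.1-fold (6.04 to 18.0) and 48.7-fold (16.1 to 241) lower.

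Of 19 genes in this list, 0 rose and 1 fell against Dntt-negative, 1 and 5 against Rag1 and 2 and 7 against Ms4a1 cells, and with the block 6 and 6, 2 and 8, and 4 and 11. Each count of higher genes above 0 holds Vpreb2, whose reads may be those of the gate gene that Rag1 cells had to lack. Leaving Vpreb2 out, the fit without the block called 0 genes higher against Rag1 cells and 1, Vpreb3, against Ms4a1 cells. With the block, Gab2 was left against Rag1 cells, and Vpreb3, Blnk and Gab2 against Ms4a1 cells. The medians were 0.10, -0.64 and -1.16 log2, and against all other Cd79a cells the block called 5 higher and 9 lower.

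Immunoglobulin segments gave a separate view. Heavy chain variable (Ighv) UMIs were found in 16.8% and 38.0% of pro-B cells, over 25 and 47 of 185 genes, against 0% and 0.151% of stromal cells. The most abundant was Ighv14-2, with 14 and 135 UMIs. The shares were 18.1% and 18.6% in Dntt-negative and 13.0% and 25.7% in Rag1 cells, so that pro-B cells had the highest share of these classes in library 2 and not in library 1. These shares were not thinned, and the classes differed in depth. Summed Ighv levels were 17.8 and 95.4 CPM in pro-B, 8.76 and 14.7 in Dntt-negative and 29.0 and 69.0 in Rag1 cells. By level, pro-B cells of library 1 thus lay above Dntt-negative and below Rag1 cells. Kappa variable (Igkv) UMIs were in 5.61% and 5.86% of pro-B cells, 25.9% and 36.3% of Dntt-negative cells and 27.9% and 47.0% of Rag1 cells. None of the 3 lambda variable (Iglv) genes had a UMI in pro-B cells, which allows a share of up to 0.935% and 0.926% of cells with such a UMI and sets no limit on cells that express the genes.

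Igkc, the kappa constant gene, was at 117 and 167 CPM in pro-B cells and 567 and 1013 CPM in Dntt-negative, 3499 and 5055 in Rag1 and 3111 and 6666 in Ms4a1 cells. It fell against Rag1 cells (log2 fold change -4.89 ± 0.50, adjusted p = 0.00401) and Ms4a1 cells (adjusted p = 0.00367), and against Dntt-negative cells with the block (adjusted p = 8.67e-05) and not without it (0.0736), where leaving out cells with Mki67 or Top2a UMIs gave -3.86 ± 0.45, adjusted p = 0.0180. A UMI was found in 19.9% and 19.1% of pro-B cells and 18.0% and 2.71% of stromal cells, and after thinning in 10.3% and 13.6% of pro-B and 1.84% and 0.435% of stromal cells. In library 1 the unthinned share was near that of the deeper stromal cells.

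The lambda constant genes Iglc1, Iglc2 and Iglc3, near-copies that can share reads, were nearly absent. Iglc2 had 1 and 0 UMIs in pro-B cells and 678 and 709 in Rag1 cells, 562-fold (101 to 22247) and at least 436-fold lower (adjusted p = 0.00330), and 1819 and 2471 in Ms4a1 cells. Iglc1 had 4 and 0 UMIs in pro-B and 944 and 845 in Rag1 cells, and Iglc3 had 3 and 9 against 867 and 336.

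Of the MHC class II genes, Cd74, the invariant chain, was at 14.6 and 5.34 CPM in pro-B cells, 45.4 and 130.4 in Dntt-negative, 371 and 646 in Rag1 and 2506 and 6493 in Ms4a1 cells. It fell against Rag1 (log2 fold change -5.60 ± 0.83, adjusted p = 0.0125) and Ms4a1 cells (log2 fold change -8.86 ± 0.95, adjusted p = 0.00474), and against Dntt-negative cells with the block (adjusted p = 0.00860). H2-Aa, H2-Eb1 and Ciita, the class II transactivator, fell in the same 2 comparisons. Of 21 genes of later B cells, none rose in any of the 3 comparisons, and 0, 9 and 16 fell against Dntt-negative, Rag1 and Ms4a1 cells, with medians of -0.75, -3.14 and -5.19 log2. With the block 3 rose and 6 fell, 0 and 14, and 0 and 18, and 1 rose and 15 of 19 fell against all other Cd79a cells. By edgeR's unadjusted p under 0.05, 3 rose and 6 fell against Dntt-negative cells, and DESeq2 called 1 and 5. Ms4a1, itself a gene of later B cells, was part of the gate.

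Among the cytokine receptors, Il7r was at 138 and 174 CPM in pro-B cells, 183 and 237 in Dntt-negative, 374 and 411 in Rag1 and 109.8 and 71.7 in Ms4a1 cells. It was lower than in Rag1 cells (log2 fold change -1.31 ± 0.26, adjusted p = 0.0306) and was not called against the other 2 classes (adjusted p = 0.389 and 0.193), although with the block it was higher than in Ms4a1 cells (0.0374). Among cells without Mki67 or Top2a UMIs the difference from Rag1 cells no longer passed (-1.21 ± 0.31, adjusted p = 0.0569). Il2ra (CD25), a marker of later pre-B cells, had 9 and 3 UMIs in pro-B cells and 188 and 68 in Rag1 cells, 17.3-fold (8.94 to 38.5) and 41.8-fold (13.7 to 208) lower (adjusted p = 0.00438).

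Kit, the stem cell factor receptor, was at 33.9 (28.3 to 40.3) and 21.4 (16.1 to 27.8) CPM in pro-B cells and at most 4.73 CPM in the 3 other classes, and Flt3, the receptor of an early lymphoid cytokine, at 6.36 and 4.58 CPM against at most 5.44, where the Flt3 levels overlapped. For Kit neither the test against Dntt-negative cells nor that against Rag1 cells passed without the block (adjusted p = 0.257 and 0.0745), and with it both did (0.00757 and 0.00126). Among cells without Mki67 or Top2a UMIs the first was at 1.19 ± 0.98, adjusted p = 0.845 and the second at 3.88 ± 0.95, adjusted p = 0.0415. Flt3 against Dntt-negative cells gave 0.295 without the block and 0.0268 with it. Jak3, the kinase of the common gamma chain, and Socs2, a feedback inhibitor, rose against Rag1 cells (2.90 ± 0.59 and 1.51 ± 0.24 log2, adjusted p = 0.0336 and 0.0160), and Socs2 also against Ms4a1 cells. Socs2 in cells without Mki67 or Top2a UMIs lost its call against Rag1 cells (1.52 ± 0.43, adjusted p = 0.0784) and Jak3 kept it (adjusted p = 0.0389). Tnfrsf13c, the BAFF receptor, fell against both.

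Of the 19 cytokine receptor and survival genes 17 were tested, and 0 rose and 0 fell against Dntt-negative, 2 and 3 against Rag1 and 1 and 2 against Ms4a1 cells. The medians were 0.65, -0.01 and -0.39 log2, and the block gave 6 and 0, 4 and 5, and 4 and 4, and against all other Cd79a cells 5 and 3 of 18. Against Dntt-negative cells 7 had an unadjusted p under 0.05, all higher, and DESeq2 called 0. Myc was at 8.75 and 14.9 CPM in pro-B cells, 7.88 and 18.8 in Dntt-negative, 2.20 and 3.52 in Rag1 and 11.9 and 51.7 in Ms4a1 cells, where the values overlapped for Dntt-negative cells.

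On the surface, Cd2, an adhesion receptor, had 12 and 1 UMIs in pro-B cells against 720 and 449 in Rag1 and 560 and 486 in Ms4a1 cells, 49.8-fold (28.3 to 96.8) and 828-fold (148 to 32771) lower than in Rag1 cells (adjusted p = 0.00930). Cd38 was at 4.24 and 8.02 CPM in pro-B and 127 and 129 in Rag1 cells, and Ly6d, a marker of B-lineage specification, at 94.1 and 71.8 CPM in pro-B and 933 and 1549 in Rag1 cells. Both fell against Rag1 cells (-4.39 ± 0.32 and -3.87 ± 0.62 log2, adjusted p = 0.00221 and 0.0159). Bst1 was at 50.6 and 81.3 CPM in pro-B cells and 13.6 and 11.0 in Ms4a1 cells and rose against the latter (log2 fold change 2.32 ± 0.39, adjusted p = 0.0209). Ptprc was at 67.6 and 48.1 CPM in pro-B cells and 219.8 and 219 in Ms4a1 cells, and it fell against these (log2 fold change -1.99 ± 0.35, adjusted p = 0.0260).

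Pecam1, which encodes the sorted CD31, had 29.9 and 18.7 CPM in pro-B cells, 27.8 and 15.9 in Dntt-negative, 59.4 and 40.8 in Rag1 and 30.9 and 16.5 in Ms4a1 cells. Cd24a (heat-stable antigen) was at 759 and 789 CPM in pro-B and 1424 and 1337 CPM in Dntt-negative cells, a difference that passed with the block and not without it (adjusted p = 0.00280 and 0.0874). Cd93 had 95.9 and 79.8 CPM in pro-B cells. Of 16 early B surface genes 15 were tested, and 0 rose and 0 fell against Dntt-negative, 0 and 4 against Rag1 and 1 and 5 against Ms4a1 cells. With the block the counts were 2 and 4, 2 and 8, and 5 and 7, and 3 and 9 against all other Cd79a cells, and the medians were 0.00, -1.20 and -0.92 log2. Against Dntt-negative cells the unadjusted p was under 0.05 for 2 higher and 4 lower genes, and DESeq2 called 1 and 2.

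In the homing and adhesion list, Ccr7, a lymph node homing receptor, fell against Rag1 cells (log2 fold change -3.26 ± 0.49, adjusted p = 0.0128) and, with Cnr2 and Gpr183, against Ms4a1 cells. Of 12 tested, 0 rose and 0 fell against Dntt-negative, 0 and 1 against Rag1 and 0 and 3 against Ms4a1 cells, with medians of 0.42, -0.75 and -0.86 log2. The block gave 4 and 1, 3 and 5, and 1 and 7, and 3 and 4 against all other Cd79a cells. For the Dntt-negative comparison 5 higher genes and 1 lower had an unadjusted p under 0.05, and DESeq2 called 2 and 1.

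Over all genes tested, list members included, a rule named the 5 genes with the largest log2 fold changes in each direction. Against Dntt-negative cells the higher genes were Speer2, 1810073O08Rik, Prkch, A630023P12Rik and Scn4b. Prkch, which encodes protein kinase C eta, had 75 and 52 UMIs in pro-B cells and 4 and 1 in Dntt-negative cells, a ratio of 28.4-fold (10.6 to 107) and 33.8-fold (5.80 to 1359.9) (adjusted p = 0.0320). Scn4b, a sodium channel beta subunit, was 31.8-fold (10.4 to 158) and 19.5-fold (3.24 to 795) higher (adjusted p = 0.0424), and the long noncoding RNA A630023P12Rik 49.9-fold (23.9 to 126) and 15.3-fold (7.59 to 35.9) (0.0424). Speer2, from a multigene family whose members can share reads, had 110 and 105 UMIs against 1 and 1 and was found in 10.3% and 8.02% of pro-B cells, 6.99% and 5.79% after thinning. None of these 5 calls held among cells without Mki67 or Top2a UMIs, where the log2 fold changes were 5.08 ± 1.13, adjusted p = 0.233, for Speer2, 2.48 ± 0.72, adjusted p = 0.371, for 1810073O08Rik, 2.13 ± 1.20, adjusted p = 0.741, for Prkch, 2.37 ± 0.54, adjusted p = 0.232, for A630023P12Rik and 2.29 ± 0.91, adjusted p = 0.623, for Scn4b.

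The lower genes were Ikzf3, Myl4, Gm30211, Polm and Emid1. Myl4, a myosin light chain, was at 88.0 and 47.3 CPM in pro-B cells and 653 and 593 CPM in Dntt-negative cells (log2 fold change -3.34 ± 0.36, adjusted p = 0.0424). Gm30211 is a long noncoding RNA on chromosome 6 (GRCm38, 70719074 to 70740554, plus strand) that spans Igkc on the same strand (70726435 to 70726966), so that reads of the 2 genes may not be told apart. It had 10.1 and 6.49 CPM in pro-B cells and 65.8 and 77.5 CPM in Dntt-negative, 442 and 548 in Rag1 and 137 and 139.9 in Ms4a1 cells.

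Against Rag1 cells the rule named Speer2, Myl10, Vpreb2, Arpp21 and Mmrn1 as higher and Iglc2, Iglc1, Cd2, Iglc3 and Dtx1 as lower. Arpp21, a phosphoprotein gene that is known as a host of a microRNA, was at 105 and 121 CPM in pro-B cells, 7.36 and 9.99 in Dntt-negative, 0.220 and 0 in Rag1 and 6.67 and 12.4 in Ms4a1 cells. It was called against Dntt-negative (log2 fold change 3.57 ± 0.41, adjusted p = 0.0424) and Rag1 cells (adjusted p = 0.00108). Myl10, another myosin light chain, had 82.9 and 231 CPM in pro-B cells and 1 and 0 UMIs in Rag1 cells, and Mmrn1 59 and 48 against 0 and 0 UMIs, a ratio of at least 23.7-fold and at least 8.68-fold. Dtx1, a Notch pathway gene, had 4 and 0 UMIs in pro-B and 252 and 46 in Rag1 cells, 52.3-fold (20.2 to 193) and at least 28.3-fold lower.

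Against Ms4a1 cells the higher genes were Npr1, Fcrl6, 1500002F19Rik, Tnfsf10 and Dkk3. Tnfsf10 (TRAIL), a death ligand, had 153 and 176 UMIs in pro-B and 7 and 4 in Ms4a1 cells, 23.4-fold (11.1 to 59.3) and 24.4-fold (9.35 to 90.5) higher (adjusted p = 0.0116). Fcrl6, an Fc receptor-like gene, was 27.2-fold (8.95 to 135) and 34.0-fold (11.4 to 166) higher on 76 and 184 UMIs. Npr1 and Dkk3 were also stromal genes here, with 2.51 and 9.02 CPM of Npr1 in stromal beside 7.95 and 8.78 in pro-B cells, and 18.6 and 38.8 of Dkk3 beside 10.9 and 9.54, and the part of stromal RNA in their calls was not tested. The lower genes were Iglc2, Iglc1, Wnt10a, Bcl2a1b and Cd74. Wnt10a, a Wnt ligand, had 0 UMIs in pro-B cells and 190 and 88 UMIs in the other class (at least 59.1-fold and at least 52.9-fold), and Bcl2a1b, of a family of near-copies, 0 UMIs against 54 and 122 (at least 16.8-fold and at least 73.4-fold).

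Markers of other cell types were called in these 3 comparisons mainly with the block. Erythroid, neutrophil, monocyte and macrophage, T and NK cell and stromal markers had 0 calls in each by edgeR without the block, with unadjusted p-values under 0.05 for 2, 3 and 3 genes and DESeq2 calls for 0, 1 and 2, although neutrophil markers summed to 21296 and 69.0 CPM in Rag1 cells and 11980.2 and 9023 CPM in Ms4a1 cells. With the block 5 of 37 were higher and 1 lower against Dntt-negative cells, 1 higher and 10 lower against Rag1 cells, and 17 lower against Ms4a1 cells, among them 5 and 6 erythroid markers in the last 2 and 6 stromal markers in the last. Of 3 endothelial markers tested Egfl7 rose against Rag1 (log2 fold change 5.06 ± 0.40, adjusted p = 0.00221) and Ms4a1 cells. It was at 85.3 and 81.7 CPM in pro-B cells, where Cdh5 and Tek had 0 UMIs in library 1 and Esam and Plvap in library 2, and the list summed to 121 and 111 CPM. Of 6 plasma cell and plasmacytoid dendritic markers Bst2 rose and Sdc1 fell against Rag1 cells, and Mzb1, an antibody assembly factor at 1062 and 1613 CPM, rose against Ms4a1 cells (log2 fold change 1.48 ± 0.32, adjusted p = 0.0481). That list summed to 1550.2 and 1976 CPM, with Siglech at 0.

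Genes of other early lineages were scarce, with a summed 105 and 62.6 CPM in pro-B cells and 1447 and 187 CPM in the other Cd79a cells. Gata2, Bcl11b, Cd3e, Cd3d, Cd7, Siglech and Ccr2 were at 0 in the pro-B cells of both libraries. Of 11 tested, 0 rose and 0 fell against Dntt-negative, 0 and 1 (Cebpb, a myeloid factor) against Rag1 and 0 and 0 against Ms4a1 cells, with medians of -1.02, -2.51 and -2.57 log2. The block called 1 and 3, 1 and 6, and 1 and 6, unadjusted p-values under 0.05 numbered 1, 3 and 3, and DESeq2 called 0, 1 and 1.

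The share of cycling cells also differed between the classes in each library. A UMI of Mki67 or Top2a, genes of dividing cells, was found in 52.0% (46.4 to 57.6) and 30.9% (25.9 to 36.2) of pro-B cells, and in 38.7% and 20.2% after thinning. Thinned shares were 76.6% and 40.5% in Dntt-negative, 22.3% and 17.1% in Rag1, 17.1% and 5.37% in Ms4a1 and 6.38% and 2.26% in stromal cells. Pro-B cells thus stood between the Dntt-negative and the Rag1 cells in each library, and every class was lower in library 2. These cells were deep and gave 78.8% and 51.8% of all pro-B UMIs, so that the class sums weigh them most.

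Of 43 S phase genes 0 rose and 0 fell against Dntt-negative, 5 rose against Rag1 and 1 against Ms4a1 cells, and Tyms, thymidylate synthase, was in the last 2 counts (1.77 ± 0.31 and 1.48 ± 0.30 log2, adjusted p = 0.0204 and 0.0420). None of the S phase genes called here kept its call among cells without Mki67 or Top2a UMIs. Tyms was there at 1.37 ± 0.59, adjusted p = 0.245, against Rag1 and 1.45 ± 0.60, adjusted p = 0.206, against Ms4a1 cells. Uhrf1, an S phase gene not called without this restriction, rose with it against Ms4a1 cells (1.5999 ± 0.4045 log2, adjusted p = 0.04598). The medians were -0.60, 0.73 and 0.76 log2, and the block gave 17 lower, 26 higher and 29 higher. Against Dntt-negative cells 11 were lower at an unadjusted p under 0.05 and 1 by DESeq2. Of 52 G2 and M phase genes none passed in any of the 3, with medians of -0.63, -0.01 and 0.72 log2, and the block gave 17 lower, 2 higher and 2 lower, and 21 higher. Unadjusted p-values under 0.05 numbered 8, all lower, 0 and 12, all higher, and DESeq2 called 0, 0 and 3. None of 17 nucleolar and ribosome assembly genes passed either (medians -0.60, 0.68 and -0.12 log2; block 11 lower, 11 higher and 3 lower; unadjusted 4 lower, 7 higher and 2 lower; DESeq2 1 lower, 1 higher and 0). Of 15 cell cycle regulators none passed against Dntt-negative cells (unadjusted 2 higher and 3 lower, DESeq2 2 higher), Cdk4 rose and Btg1, an antiproliferative gene, fell against Rag1 cells, and Btg1 against Ms4a1 cells, with medians of -0.41, -0.19 and -0.01 log2 and block counts of 3 and 5, 5 and 5, and 5 and 3. Under the same restriction Cdk4 was at 0.57 ± 0.27, adjusted p = 0.289, against Rag1 cells, and Btg1 at -2.18 ± 0.31, adjusted p = 0.00445. Of the G2 and M phase genes, Hmgb2 (1.15 ± 0.27, adjusted p = 0.0339) and Hjurp (2.35 ± 0.60, adjusted p = 0.0483) then rose against Ms4a1 cells. Cenpa fell there (-1.19 ± 0.30, adjusted p = 0.0449).

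Restricting every class to cells without Mki67 or Top2a UMIs, chosen after seeing the data, left 154 and 224 pro-B cells and 37 and 50 Dntt-negative cells. Mgst2, a glutathione transferase, was then the only gene higher in pro-B cells, with a log2 fold change of 3.59 ± 0.41 (adjusted p = 0.0180). The 7 lower genes were Cd74, Myl4, Gm30211, Igkc, Ly6d, Ikzf3 and Dnajc7, of which Ikzf3 had -3.38 ± 0.40 (adjusted p = 0.0208). Of the 17 higher and 6 lower genes above, 1 higher and 3 lower genes kept their call. Polm (-2.89 ± 0.59, adjusted p = 0.190), Blk (-1.34 ± 0.44, adjusted p = 0.534), Arpp21 (1.84 ± 0.46, adjusted p = 0.354) and Ebf1 (0.06 ± 0.22, adjusted p = 0.975) were not called there. Against Rag1 cells 48 listed genes were called without the restriction and 47 of them tested with it, where 37 (78.7%) kept their call, beside 371 of 594 (62.5%) over all genes. Of the 10 that did not pass, Ung (1.58 to -0.04 log2), Rfc2 (1.02 to 0.22), Cdk4 (1.02 to 0.57) and Tyms (1.77 to 1.37) had smaller folds there. The folds of Cebpb (-3.42 to -3.45), Cdca7 (1.28 to 1.29), Chaf1b (1.57 to 1.89), Socs2 (1.51 to 1.52), Irf8 (-1.12 to -1.10) and Il7r (-1.31 to -1.21) moved by less than their standard errors. Against Ms4a1 cells 50 of 52 (96.2%) kept theirs, beside 399 of 468 (85.3%) over all genes, and Il2ra (-3.16 ± 0.89, adjusted p = 0.0518) and Tyms did not. Against all other Cd79a cells the same restriction gave 152 higher and 142 lower genes, with Erg (4.40 ± 0.38, adjusted p = 0.0157), Lef1 (3.52 ± 0.29, adjusted p = 0.0157), Ikzf3 (-4.72 ± 0.42, adjusted p = 0.0165) and Polm (-4.83 ± 0.55, adjusted p = 0.0224) among them.

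Within the pro-B cells, those with a Mki67 or Top2a UMI (167 and 100) were set against those without (154 and 224). Median depths were 14849 and 12272.5 UMIs against 4474 and 4910.5, and since a deeper cell is more likely to show either gene, cycling and depth cannot be told apart. Of 8223 genes tested, 543 were higher in the cycling cells (6.6%) and 156 lower (1.9%), or 1575 (19.2%) and 1078 (13.1%) with the block. In this comparison 42 of 43 S phase and 43 of 50 G2 and M phase genes rose, with medians of 2.96 and 3.79 log2 beside -0.01 over all genes, and 43 and 49 with the block. Mki67 and Top2a, which made the split, belong to the same phases and were left out.

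Rrm2, a subunit of ribonucleotide reductase, was at 372 and 554 CPM in the cycling and 11.2 and 17.4 CPM in the other pro-B cells (log2 fold change 5.18 ± 0.36, adjusted p = 0.00258), and Cdk1, the mitotic kinase, at 209.6 and 289.7 against 9.98 and 3.96 CPM (log2 fold change 5.41 ± 0.47, adjusted p = 0.00341). Npm1, a nucleolar chaperone, was at 2673 and 2657 against 1278 and 1505 CPM (log2 fold change 1.14 ± 0.19, adjusted p = 0.0204) and was among 6 of 16 nucleolar genes that rose (median 1.14 log2, 13 with the block). Of 14 cell cycle regulators Ccnd3, Cdk4, Cdkn2c and E2f1 rose and Btg1 and Btg2 fell (median 0.57 log2, 7 and 3 with the block). Cyclin D3 (Ccnd3), required for pre-B cell division, was at 428 and 388 against 162 and 139 CPM (log2 fold change 1.64 ± 0.24, adjusted p = 0.0125).

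**Figure D4:**
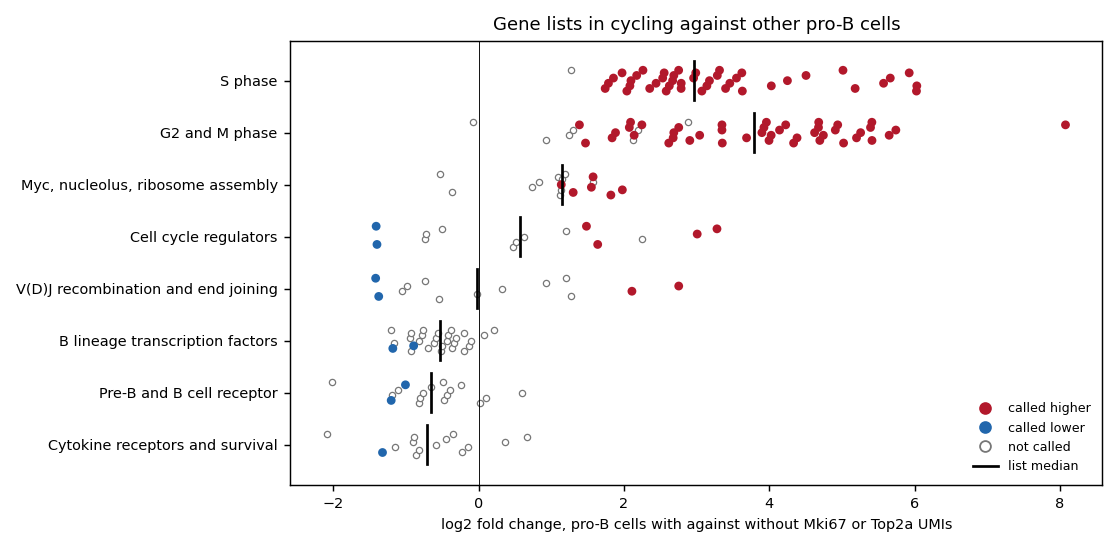
Log2 fold change of each tested gene of 8 lists, pro-B cells with against without Mki67 or Top2a UMIs, 1 point a gene, called higher in red, called lower in blue, not called open, with a black bar at each list median. S phase and G2 and M phase genes lie high, at medians of 2.96 and 3.79, and the medians of the transcription factor, receptor and cytokine receptor lists lie below 0.

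Of the recombination genes, Rag1 and Xrcc6 were lower in the cycling pro-B cells. Rag1 was at 144 and 117 CPM against 463 and 337 CPM (log2 fold change -1.42 ± 0.28, adjusted p = 0.0306), and thinned to equal depth it was found in 27.3% and 22.5% against 55.4% and 46.4% of cells. Xrcc6 (Ku70), which binds broken ends, was at 190.1 and 244 against 628 and 662 CPM (log2 fold change -1.38 ± 0.23, adjusted p = 0.0189). The cycling cells were below the others in both libraries. Hmgb1 and Hmgb2, chromatin proteins that assist RAG and also follow division, rose instead, Hmgb2 from 639 and 894 to 4220.5 and 4775 CPM (log2 fold change 2.75 ± 0.24, adjusted p = 0.00341). Of 13 genes in the list 2 rose and 2 fell (median -0.02 log2), or 3 and 2 with the block.

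The transcription factors Ebf1 and Erg fell too, from 4117 and 4158 to 1716 and 2171 CPM (log2 fold change -0.90 ± 0.20, adjusted p = 0.0464) and from 142 and 162 to 52.5 and 64.9 CPM (log2 fold change -1.18 ± 0.26, adjusted p = 0.0434), as 2 of 28 factors of which none rose (median -0.54 log2, 13 lower with the block). Vpreb3 was at 1859.6 and 2309 against 4686 and 4915 CPM (log2 fold change -1.01 ± 0.20, adjusted p = 0.0311), and with Dok3 made 2 lower of 17 receptor genes (median -0.66 log2, 12 with the block). Il2rg, the common gamma chain, was the 1 of 14 cytokine receptor genes that fell (median -0.71 log2, 7 with the block). Ltb, lymphotoxin beta, was at 46.8 and 70.0 against 299 and 256 CPM (log2 fold change -2.06 ± 0.30, adjusted p = 0.0122), and Cd37 fell with it among 8 genes of later B cells (median -0.56 log2; 2 higher and 3 lower with the block). Among 8 homing genes Ccr7 rose and S1pr1 fell (median -0.30 log2; 1 and 4 with the block), and none of 11 surface genes passed (median -0.56 log2; 3 and 6 with the block, 1 and 3 at an unadjusted p under 0.05, 0 and 1 by DESeq2). Of 4 genes of other early lineages Irf7 fell, and no marker of erythroid, neutrophil, monocyte and macrophage, T and NK, stromal, endothelial or plasma cells passed by edgeR without the block (4 at an unadjusted p under 0.05, 1 by DESeq2). With the block Car2, Ngp and Camp were higher in the cycling cells, and Col1a2, Pecam1, Egfl7, Mzb1 and Tcf4 lower.

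By the same naming rule the genes highest in cycling pro-B cells were Aunip, Lrr1, Hist1h2af, Oip5 and Spag5, all with 0 UMIs in the non-cycling cells. Aunip, an Aurora kinase A interactor, had 122 and 70 UMIs there, a ratio of at least 11.0-fold and at least 21.7-fold (adjusted p = 0.00413), and Lrr1 63 and 73 UMIs, a ratio of at least 5.66-fold and at least 22.7-fold. Those lowest were Speer2, Rpl3l, Adamts7, Camk2b and 1810073O08Rik. Adamts7, a secreted metalloproteinase, was at 19.5 and 21.4 against 182 and 168 CPM (log2 fold change -2.90 ± 0.28, adjusted p = 0.00368), and Speer2 at 9.76 and 2.21 against 101 and 80.7 CPM. Myl4, lower in pro-B than in Dntt-negative cells, was at 108 and 81.8 CPM in the cycling and 12.5 and 10.3 CPM in the other pro-B cells (log2 fold change 3.27 ± 0.35, adjusted p = 0.00463).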

How the data were processed

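UMI counts per gene and cell were deposited by the authors for each library, as a sparse matrix of raw counts, and the submitters' processing notes name Cell Ranger 6.1.2 and mm10. Counts were used as deposited, and 0 columns of per-sample values were left out. The study's own filter was applied (at least 500 genes and 500 UMIs, at most 10% mitochondrial UMIs). The gate, the gene lists and the comparisons were chosen with earlier results of these data known.

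Counts were summed per library and class, since cells are not replicates, and tested with edgeR 4.0.16 (limma 3.58.1, R 4.3.3): filterByExpr, TMM and the quasi-likelihood test (glmQLFit with legacy = FALSE), with Benjamini-Hochberg adjustment over all genes tested and a threshold of 0.05. The 5 gate genes were left out of the calls, Rag1 against the Rag1 cells, and Mki67 and Top2a where they made the split. Named genes were the defining list members, up to 4 called members of each list with the largest absolute log2 fold change, and the 5 genes with the largest fold change in each direction among those called, of the same direction in both libraries and with at least 20 UMIs in each library in the higher class. Against all other Cd79a cells the rule allowed 10 and was applied to the blocked fit, since the fit without it called none.

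The main fits had no block. Classes of a library come from the same cell suspension, and the deviations of same-numbered sums correlated at 0.564 to 0.706, so that the library pairs them and the blocked values are printed beside the others. Alternatives were DESeq2 1.42.0, no filter on low counts, the older quasi-likelihood fit, deeper cells, a gate of 2 UMIs, totals without immunoglobulin genes, and cells without Scrublet doublets (scanpy 1.11.5). Levels are CPM with exact 95% Poisson intervals (scipy 1.17.1), and shares have exact binomial intervals. The fits were tested on simulated data, where without the block they recovered few of the genes changed against all other Cd79a cells and a minority of those changed between the other classes. Between pro-B cells with and without Mki67 or Top2a UMIs they recovered most of the larger changes and few of the smaller. A low count of calls in the comparisons of classes therefore does not show that few genes differed. In every comparison the share of false calls was above the threshold, most of all against all other Cd79a cells. The blocked fits were not run on simulated data, so that their share of false calls is not known.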

Additional observations from a re-analysis of the deposited data

Results flagged for a closer look

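Transgene UMIs were found in mice labelled wild type. EGFP had 8 UMIs in the pro-B cells of library 2 and 0 in those of library 1, or 0 and 3.05 CPM. In library 2 it was at 133 CPM in the other Cd79a cells, 145 CPM in Rag1 cells and 161 CPM in stromal cells. Dntt-negative cells of library 2 held 4.70 CPM and Ms4a1 cells 0.689 CPM, on 8 and 1 UMIs. The pro-B level was thus near the low end of these classes, and library 1 had none in any of them.

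The tdTomato transcript had 53 UMIs in the pro-B cells of library 1 and 99 in those of library 2, or 14 and 37.8 CPM. Stromal cells held 40.2 and 345 CPM and the other Cd79a cells 19.6 and 76.8 CPM, so that pro-B cells were lowest of the 3 in both libraries. Among cells without Mki67 or Top2a UMIs edgeR called neither transcript against all other Cd79a cells or against Dntt-negative cells. No test was made against stromal cells. Against all other Cd79a cells EGFP was at -5.34 ± 2.70 log2 (adjusted p = 0.399) and tdTomato at -0.92 ± 0.54 (adjusted p = 0.478). The source of these UMIs was not tested.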

How the results depend on the processing

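Counts of genes called are given as higher and lower. Against all other Cd79a cells, 0 and 0 became 286 and 275 with DESeq2, 932 and 1087 with the replicate block, 23 and 8 without cells that had over 1% of their UMIs from other-lineage lists, and 152 and 142 among cells without Mki67 or Top2a UMIs, an alternative chosen after seeing the data. Against Dntt-negative cells, 17 and 6 became 155 and 52 with DESeq2, 45 and 13 without a filter on low counts, 875 and 668 with the replicate block, 0 and 0 with the older quasi-likelihood fit, 54 and 19 with the gate of 2 UMIs, and 1 higher in cells without Mki67 or Top2a UMIs. With the replicate block the counts against Rag1 cells were 1570 and 1491 and against Ms4a1 cells 1111 and 1381, where the restriction to cells without Mki67 or Top2a UMIs gave 333 higher. Between cycling and other pro-B cells the replicate block gave 1575 and 1078, and no filter 90 lower. The cause was not tested.

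Of 102 calls of listed genes made without the block and tested again among cells without Mki67 or Top2a UMIs, 1 changed sign, Ung against Rag1 cells (1.58 to -0.04 log2). The restricted fit had no block, so that for calls made with the block both the cells and the model changed. Of 510 such calls 35 changed sign. These included Mpo (-5.00 to 1.54) and Ctsg (-4.93 to 1.62) against all other Cd79a cells, Col3a1 (-3.03 to 0.96) and Lum (-3.06 to 0.44) against Ms4a1 cells and Rag2 (1.48 to -0.02) against Dntt-negative cells, none of which passed in the restricted fit. Cells of at least 2000 UMIs, totals without immunoglobulin genes, cells without Scrublet doublets (1 cell in library 2), and other cells with at least 2 Cd79a UMIs kept each count of calls within 1.5 times. Among cells without Mki67 or Top2a UMIs 10 of 47 listed genes lost their call against Rag1 cells, some with folds as large as before, Il7r at an adjusted p of 0.0569 (log2 fold change -1.21 against -1.31), and 2 of 52 against Ms4a1 cells. Leaving out a library leaves 1 sum a class and no test. Then 46 of 114 log2 ratios moved by more than the spread between libraries without replicate 1, and 40 of 114 without replicate 2.

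Only 2 libraries of unknown numbers of mice were at hand, library 2 held 33306452 UMIs against 100808649, and genes with a few UMIs a class have wide counting intervals.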
